A study of Mus musculus with 12 samples.

Results

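The genes described here encode the machinery that copies DNA once per cell cycle. They are 44 mouse genes named in a fixed list, and all 44 were found among the 19938 genes that the arrays' annotation ties to probe sets of a single gene symbol. Where a gene had several, the one with the highest mean was used. Of the 44 genes, 42 had 1 such probe set, and Tk1 and Pcna had a second one that gave nearly the same profile over the arrays (Pearson r = 0.971 and 0.9998, 12 arrays).

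The samples were bone marrow cells of mice (strain C57/BL6/C3H). Each sample received 1 of 4 retroviruses, and each construct had 3 biological replicates. MIG, the empty vector, was the control. CALM-AF10 is a fusion of the endocytic adaptor CALM with AF10, a partner of the histone methyltransferase DOT1L. CALM-AF10 ΔOM-LZ is the same fusion without the stretch named OM-LZ, and CALM(400-648)+AF10 (677-758), called the minimal fusion below, joins a fragment of each protein. Every group, controls included, came from mice given 5-fluorouracil 4 days before marrow was taken, and 5-fluorouracil itself acts on thymidylate synthase, the product of Tyms. All cells were stimulated for 48 h and laid over producer cells (GFP+E86) irradiated with 40 Gy, with cytokines and 5 µg/ml of protamine sulfate. They were then grown for another 48 h and sorted for green fluorescence, and RNA was taken 96 h after transduction. The sorted cells were a mixture of marrow lineages, so that in each value fewer dividing cells and less message per cell cannot be told apart.

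Replication begins with licensing. In G1 the origin recognition complex, CDC6 and CDT1 load the ring of MCM2 to MCM7 onto DNA. At the start of S phase CDC45 and the GINS complex turn that ring into the moving helicase, polymerase alpha with primase lays primers, and polymerases delta and epsilon extend them, held by the PCNA clamp that the RFC complex loads. Many of these genes are switched on together at the G1/S boundary by E2F transcription factors once cyclin-dependent kinases (CDKs) have released them from RB proteins. In marrow cultures their messages are commonly read as a sign of cells in cycle.

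The promoters of the list carried E2F words more often than promoters did in general. RefSeq windows from 250 bases before to 50 bases after an annotated start (GRCm38.p6) were at hand for 36 of the 44 genes. A window was searched on both strands for the 4 words TTTCCCGC, TTTCGCGC, TTTGCCGC and TTTGGCGC, the ways to fill in the usual E2F consensus, where 2 words may overlap. At least 1 word lay in the windows of 13 of the 36 genes (36.1%), against 2.6% of all 27025 genes with a window and 3.29% of the 17492 protein-coding ones. The median GC content of the windows was 58.8% for the list and 56.3% for protein-coding genes. The 5-letter CCAAT box, searched on both strands and counted apart from those words, lay in the windows of 22 of the 36 genes (61.1%), against 42.3% of protein-coding genes. A word match is a description of these letters and does not show a bound site.

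Of the 13 genes, 8 had a word before the start. The stretches below are those of 7 of them, chosen because they span the licensing factors Orc1 and Cdc6, 3 subunits of the MCM ring, a GINS subunit and the polymerase alpha gene Pola1. Each is written 5′ to 3′ on the gene's own strand from RefSeq, with 20 bases on either side where the start allows. Capitals mark the E2F words, written as they stand on that strand.
Orc1, chr4:108579407-108579453, plus strand: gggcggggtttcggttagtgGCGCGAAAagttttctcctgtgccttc
Cdc6, chr11:98907993-98908040, plus strand: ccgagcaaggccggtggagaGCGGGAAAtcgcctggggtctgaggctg
Mcm5, chr8:75109336-75109387, plus strand: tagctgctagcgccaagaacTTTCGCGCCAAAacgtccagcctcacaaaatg
Mcm6, chr1:128359725-128359835, minus strand: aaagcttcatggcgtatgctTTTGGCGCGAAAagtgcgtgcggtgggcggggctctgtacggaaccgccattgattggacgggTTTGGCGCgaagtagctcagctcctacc
Mcm7, chr5:138172021-138172068, minus strand: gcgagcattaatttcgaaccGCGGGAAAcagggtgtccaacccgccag
Gins3, chr8:95633498-95633545, plus strand: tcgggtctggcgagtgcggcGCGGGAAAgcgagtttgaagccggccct
Pola1, chrX:93632266-93632313, minus strand: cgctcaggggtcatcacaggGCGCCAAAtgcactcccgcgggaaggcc

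In Mcm5 and Mcm6 a pair of words on opposite strands overlapped in a single run, and Mcm6 had 1 more word downstream of it. Mcm3 and Lig1, which followed the rest of the list most closely on the arrays along with Tk1, had their words just after the annotated start. The 30-base stretches around them show 2 words in Mcm3 and 1 in Lig1.
Mcm3, chr1:20820265-20820294, minus strand: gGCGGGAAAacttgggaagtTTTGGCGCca
Lig1, chr7:13278841-13278870, plus strand: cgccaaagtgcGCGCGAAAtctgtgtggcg

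The last 80 bases before the start are shown for Tk1 and for Orc2, which followed the rest least. Neither window held any of the 4 words, so all letters are in lower case.
Tk1, chr11:117826015-117826094, minus strand: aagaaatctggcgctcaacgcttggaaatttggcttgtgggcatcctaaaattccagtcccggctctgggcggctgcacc
Orc2, chr1:58505110-58505189, minus strand: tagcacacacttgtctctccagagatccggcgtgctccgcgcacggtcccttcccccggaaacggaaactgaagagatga

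Replication genes were high or low together on an array, and arrays of 1 construct differed more among themselves than constructs did. The mean log2 value over the 44 genes was 10.06, 9.29 and 9.42 in MIG replicates 1, 2 and 3, and 9.51, 10.04 and 9.17 in the CALM-AF10 replicates. It was 9.36, 9.85 and 9.45 in the CALM-AF10 ΔOM-LZ replicates and 9.60, 10.14 and 9.85 in the minimal fusion replicates. Replicate 1 of MIG, replicate 2 of CALM-AF10 and replicate 2 of the minimal fusion were the highest 3 arrays, so that each of 3 constructs held one of them, and all 4 groups overlapped. From CALM-AF10 replicate 3, the lowest array, to minimal fusion replicate 2, the highest, the mean ran over 0.97 on the log2 scale, or 1.96-fold. Of the variance of this mean over the 12 arrays, 15.9% lay between constructs and 21.6% between replicate numbers. Replicate 2 was the highest array in each fusion and the lowest in MIG.

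The shift ran through nearly the whole list. On MIG replicate 1 and minimal fusion replicate 2, 44 of 44 genes stood above their own mean over the arrays, and on CALM-AF10 replicate 2, 42 did. On CALM-AF10 replicate 3, 2 genes did, and on MIG replicate 2, 1 did. Minimal fusion replicate 2 was the highest array for 20 genes and MIG replicate 1 for 15, while CALM-AF10 replicate 3 was the lowest for 29.

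**Figure D1:**
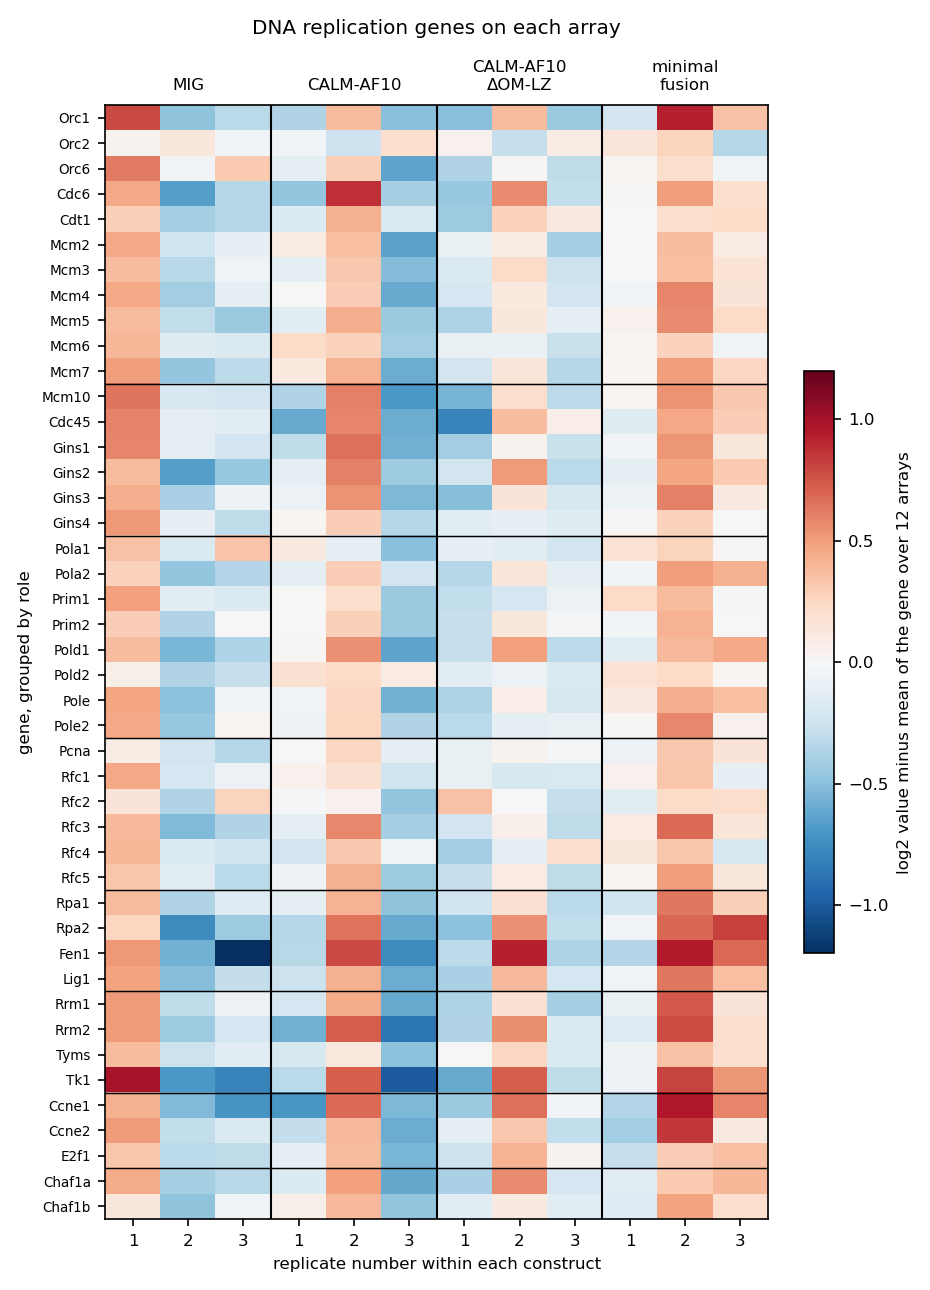
Each row is 1 of the 44 genes, grouped by role and separated by lines, and each column is 1 array, with the construct above and the replicate number below. Colour is the log2 value minus the mean of that gene over the 12 arrays; MIG replicate 1, CALM-AF10 replicate 2 and minimal fusion replicate 2 are red over nearly all rows, CALM-AF10 replicate 3 is blue over all but 2 rows, and Orc2 follows no such columns.

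Group means of the list lay close beside that spread. They were 9.59 (SD 0.41, n = 3) for MIG, 9.57 (SD 0.44, n = 3) for CALM-AF10, 9.55 (SD 0.26, n = 3) for CALM-AF10 ΔOM-LZ and 9.86 (SD 0.27, n = 3) for the minimal fusion. The minimal fusion was therefore higher by 0.27 than MIG, by 0.31 than CALM-AF10 ΔOM-LZ and by 0.29 than CALM-AF10, each less than the pooled SD within groups of 0.36. The full fusion differed from MIG by −0.02 and from CALM-AF10 ΔOM-LZ by 0.02, and ΔOM-LZ from MIG by −0.04. Single arrays moved all 6 differences. The minimal fusion stood 0.51 above MIG without MIG replicate 1 and 0.12 above without MIG replicate 2. It stood 0.46 above ΔOM-LZ without ΔOM-LZ replicate 2 and 0.17 above without minimal fusion replicate 2. Against CALM-AF10 it stood 0.52 above without CALM-AF10 replicate 2 and 0.088 above without CALM-AF10 replicate 3. CALM-AF10 minus MIG ran from −0.25 without CALM-AF10 replicate 2 to 0.22 without MIG replicate 1, and ΔOM-LZ minus MIG from −0.19 without MIG replicate 2 to 0.20 without MIG replicate 1. CALM-AF10 minus ΔOM-LZ ran from −0.21 without CALM-AF10 replicate 2 to 0.22 without CALM-AF10 replicate 3.

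No replication gene passed the test of a difference between constructs. By limma, with p adjusted by the Benjamini-Hochberg method over all 23410 probe sets that carry a gene symbol, 0 of the 44 genes passed an adjusted p of 0.05 in any of the 6 comparisons. The smallest adjusted p among them was 0.553 for the minimal fusion against MIG and 0.786 for CALM-AF10 against MIG, and in the other 4 comparisons each was over 0.999. Of all probe sets tested, 0.0342% passed for the minimal fusion against MIG, 0.0171% for it against ΔOM-LZ and 0.00427% for it against CALM-AF10, while 0% passed in the other 3 comparisons. At an unadjusted p under 0.05 there was 1 gene of the 44 (2.27%) in each comparison except the minimal fusion against CALM-AF10, which had 0. Of all genes, 3.48% were higher and 1.65% lower at that level in CALM-AF10 than in MIG (5.13% in all), where the 1 gene of the list was Pold2, higher. For ΔOM-LZ against MIG 1.47% were higher and 2.39% lower (3.87%), and the 1 gene was Orc6, lower. For the minimal fusion against MIG 3.51% were higher and 4.22% lower (7.72%), and the 1 gene was again Pold2, higher. For CALM-AF10 against ΔOM-LZ 1.69% were higher and 0.697% lower (2.38%), and for the minimal fusion against ΔOM-LZ 1.74% and 2.61% (4.34%), with Pold2 higher in both. For the minimal fusion against CALM-AF10 0.582% were higher and 1.28% lower (1.87%). In each of the 6 comparisons the share of the list in both directions together was below that of all genes. It rests on 1 gene or 0, and 2.27% lies close to 2.38%. Counting higher genes only, the list's 2.27% was above the 1.69% and 1.74% of all genes for CALM-AF10 and the minimal fusion against ΔOM-LZ. With variance modelled by trend and robust methods limma again called 0 of the 44 in each comparison. In the F test of any difference among the 4 constructs 0 passed (0.00854% of all probe sets did), and 1 had an unadjusted p under 0.05 (4.27% of all genes did).

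By the median, the precision of 3 arrays a group was lower for these genes than for all genes. The median half-width of the 95% interval of a difference was 0.59 on the log2 scale for the list, a 1.502-fold change, against 0.31 for all genes. The list's mean stood at 9.17 to 10.14 on the arrays, where array medians over all probe sets were 6.58 to 6.69. Genes of like level were not compared. Missing the threshold therefore does not show equal levels.

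Directions were uniform in the comparisons with the minimal fusion. Of the 44 genes, 41 had a higher mean under the minimal fusion than under MIG, with a median log2 difference of 0.26, while the median of all genes was 0.01. Against ΔOM-LZ all 44 stood higher (median 0.30; all genes 0.00), and against CALM-AF10 43 did (median 0.28; all genes −0.01). Because the genes move together from array to array, these counts repeat the same few arrays and are not separate evidence. Without minimal fusion replicate 2, 33 stood higher than in MIG with a median of 0.09, and without MIG replicate 2, 34 did with a median of 0.098, while without MIG replicate 1, 42 did with a median of 0.46. Without CALM-AF10 replicate 3, 31 stood higher than in CALM-AF10 with a median of 0.073, and without CALM-AF10 replicate 2, 43 did with a median of 0.50. For CALM-AF10 against MIG 19 genes stood higher and 25 lower (median −0.03), and for ΔOM-LZ against MIG the counts were also 19 and 25 (median −0.05). Leaving out CALM-AF10 replicate 2 gave 4 higher and 40 lower in the first of these, and leaving out MIG replicate 1 gave 39 higher and 5 lower. For ΔOM-LZ against MIG leaving out MIG replicate 2 gave 7 higher and 37 lower, and leaving out MIG replicate 1 gave 36 higher and 8 lower. The 3 comparisons with MIG share the MIG arrays, and those with the minimal fusion share its arrays.

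**Figure D2:**
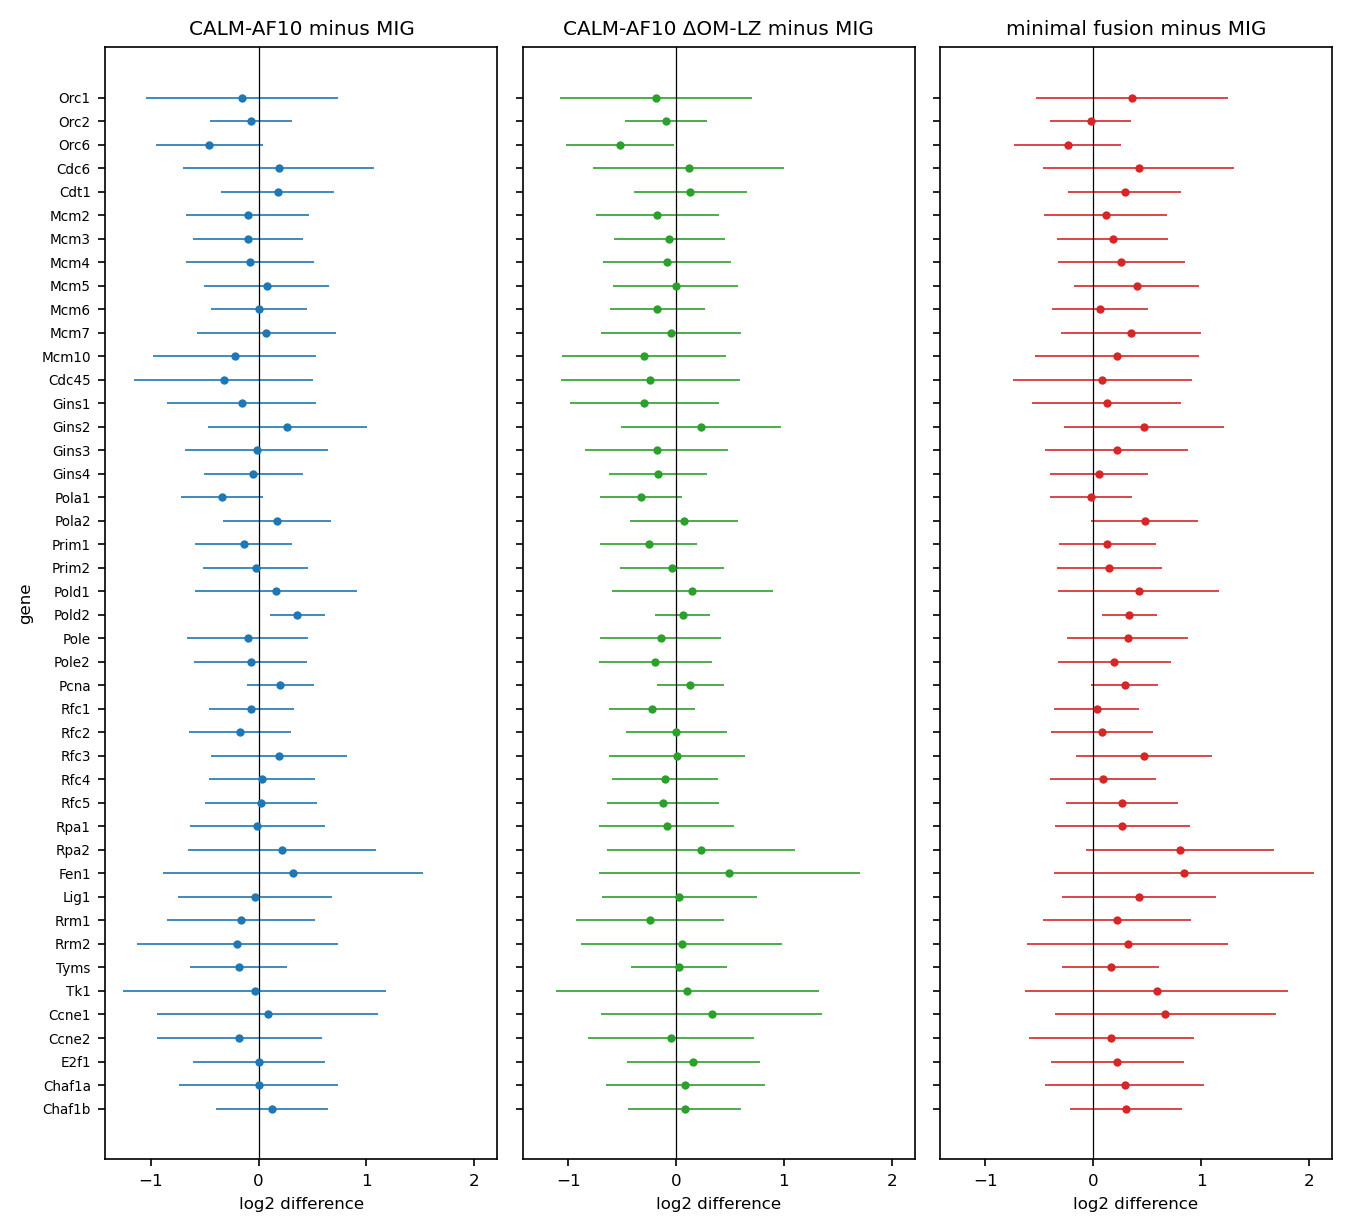
Points are log2 differences of each of the 44 genes from MIG and bars are 95% intervals from the limma fit of 12 arrays, for CALM-AF10 (left), CALM-AF10 ΔOM-LZ (middle) and the minimal fusion (right). In the right panel 41 points lie above 0, and nearly all bars in each panel cross 0, Pold2 being an exception for CALM-AF10 and the minimal fusion and Orc6 for ΔOM-LZ.

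Among licensing factors, the loader Cdc6 stood furthest above MIG in the minimal fusion and the origin complex subunit Orc6 furthest below it. Cdc6 stood at log2 values of 8.38, 7.26 and 7.59 in MIG replicates 1 to 3, 7.46, 8.80 and 7.52 in CALM-AF10, 7.47, 8.49 and 7.63 in ΔOM-LZ, and 7.94, 8.43 and 8.12 in the minimal fusion. In 3 of the 4 constructs 1 array stood well above the other 2, and the minimal fusion differed from MIG by 0.42 (95% interval −0.46 to 1.31, adjusted p = 0.847). Orc6, in the same order of constructs, stood at 10.13, 9.47 and 9.83, at 9.40, 9.79 and 8.87, at 9.15, 9.52 and 9.21, and at 9.54, 9.72 and 9.46. It was the gene of the list furthest below MIG in all 3 fusions, by 0.46 in CALM-AF10, 0.52 in ΔOM-LZ (95% interval of the difference −1.02 to −0.02, adjusted p = 0.999) and 0.24 in the minimal fusion, with overlapping groups in each.

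The subunits of the MCM ring followed the list, with Pearson r to the other 43 genes from 0.80 to 0.97 over the 12 arrays. Mcm3, the ring subunit that followed the rest of the list most closely, stood at 10.71, 10.01 and 10.29 in MIG, 10.23, 10.66 and 9.82 in CALM-AF10, 10.17, 10.57 and 10.08 in ΔOM-LZ, and 10.34, 10.71 and 10.50 in the minimal fusion. Mcm6 stood at 11.42, 10.88 and 10.85 in MIG, at 11.25, 11.30 and 10.61 in CALM-AF10, at 10.93, 10.95 and 10.75 in ΔOM-LZ, and at 11.06, 11.29 and 10.98 in the minimal fusion. Every minimal fusion array of Mcm6 lay above every ΔOM-LZ array (difference 0.24, 95% interval −0.21 to 0.68), and the full fusion stood 0.18 above ΔOM-LZ with overlapping groups. The differences of the minimal fusion from MIG over Mcm2 to Mcm7 ran from 0.06 for Mcm6 to 0.40 for Mcm5.

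Orc2, a core subunit of the origin recognition complex that also sits on DNA outside S phase, did not take part in the shift. It stood at 9.91, 10.004 and 9.84 in MIG, 9.84, 9.63 and 10.07 in CALM-AF10, 9.93, 9.60 and 9.96 in ΔOM-LZ, and 10.02, 10.14 and 9.53 in the minimal fusion. It was lowest on minimal fusion replicate 3, ΔOM-LZ replicate 2 and CALM-AF10 replicate 2, arrays on which the list as a whole was high. No construct stood apart, and the difference of the minimal fusion from MIG was −0.03 (95% interval −0.40 to 0.35) and from CALM-AF10 0.05.

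Genes that activate the helicase were high and low on the same arrays. Gins2 stood at 9.57, 8.53 and 8.74 in MIG, 9.08, 9.79 and 8.77 in CALM-AF10, 8.97, 9.70 and 8.87 in ΔOM-LZ, and 9.08, 9.67 and 9.51 in the minimal fusion, with the highest array in CALM-AF10. Its difference of the minimal fusion from MIG, 0.47 (95% interval −0.27 to 1.21, adjusted p = 0.79), was the largest of the 6 genes. Gins4, a subunit of the same complex, had the smallest at 0.05, with 10.72, 10.11 and 9.90 in MIG, 10.23, 10.50 and 9.86 in CALM-AF10, 10.07, 10.11 and 10.05 in ΔOM-LZ, and 10.21, 10.48 and 10.20 in the minimal fusion. Groups overlapped for both genes except that all Gins4 arrays of the minimal fusion lay above those of ΔOM-LZ.

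Polymerase and primase genes included the members whose groups were best separated. Pold2, the small accessory subunit of polymerase delta, stood at 11.11, 10.68 and 10.76 in MIG and at 10.91, 10.97 and 10.86 in ΔOM-LZ. In CALM-AF10 it stood at 11.22, 11.27 and 11.14, and in the minimal fusion at 11.21, 11.28 and 11.07. All CALM-AF10 arrays thus lay above all MIG and all ΔOM-LZ arrays, all minimal fusion arrays lay above all ΔOM-LZ arrays, and the minimal fusion overlapped MIG through MIG replicate 1. The log2 difference from MIG was 0.36 for CALM-AF10 (SE 0.12, 95% interval 0.10 to 0.62, adjusted p = 0.786) and 0.34 for the minimal fusion (SE 0.12, 95% interval 0.08 to 0.59, adjusted p = 0.553). From ΔOM-LZ the full fusion differed by 0.30 (95% interval 0.04 to 0.55) and the minimal fusion by 0.27 (95% interval 0.01 to 0.53), with adjusted p over 0.999, and the 2 fusions differed from each other by −0.02 (minimal minus full, 95% interval −0.28 to 0.23). By limma Pold2 was alone in the list in reaching an unadjusted p under 0.05 in these 4 comparisons, and 0 of them passed after adjustment. Its spread over the 12 arrays was among the 3 smallest of the list (SD 0.20).

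Pola2, the regulatory subunit of polymerase alpha, stood at 10.40, 9.66 and 9.77 in MIG, 10.02, 10.42 and 9.89 in CALM-AF10, 9.79, 10.27 and 10.003 in ΔOM-LZ, and 10.09, 10.62 and 10.55 in the minimal fusion, a difference of 0.48 from MIG (95% interval −0.02 to 0.98, adjusted p = 0.677). The gene of the catalytic subunit, Pola1, ran otherwise: 9.53, 9.0002 and 9.52 in MIG, 9.28, 9.07 and 8.67 in CALM-AF10, 9.08, 9.04 and 8.95 in ΔOM-LZ, and 9.34, 9.44 and 9.19 in the minimal fusion. Pola1 stood 0.34 lower in CALM-AF10 than in MIG and 0.32 lower in ΔOM-LZ (adjusted p = 0.9997 and 0.999), and the minimal fusion differed by −0.02. Prim1, the catalytic primase subunit, stood at 9.65, 9.03 and 8.99 in MIG, 9.16, 9.37 and 8.71 in CALM-AF10, 8.86, 8.96 and 9.09 in ΔOM-LZ, and 9.39, 9.53 and 9.14 in the minimal fusion, where it was 0.39 above ΔOM-LZ (95% interval −0.07 to 0.84).

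All minimal fusion arrays lay above all ΔOM-LZ arrays for 8 of the 44 genes (18.2%), where 3.74% of all genes did so. They were the polymerase and primase genes Pola1, Prim1, Pold2, Pole and Pole2 and, outside that group, Mcm6, Gins4 and Rfc3. Their differences ran from 0.22 for Gins4 to 0.46 for Rfc3, and 0 of them passed the adjusted p. Some gaps were thin, as for Pole, at 9.91 on minimal fusion replicate 1 and 9.89 on ΔOM-LZ replicate 2. The genes move together from array to array, so the 8 are not separate evidence. Minimal fusion replicate 1 had a lower list mean (9.60) than ΔOM-LZ replicate 2 (9.85), so these groups overlapped in the list mean. Between arrays numbered 1, 2 and 3 alike, the minimal fusion stood 0.24, 0.29 and 0.40 above ΔOM-LZ. From CALM-AF10 it differed in this way by 0.09, 0.10 and 0.68, and from MIG by −0.46, 0.84 and 0.43. The labels pair no arrays. Minimal fusion and ΔOM-LZ arrays deviated together over all probe sets tested for number 1 (r = 0.62), not for 2 and 3 (r = 0.07 and −0.07). In the other comparisons the count of separated genes was 1 for CALM-AF10 above MIG (Pold2; 5.94% of all genes), 1 for CALM-AF10 above ΔOM-LZ (Pold2; 4.81%) and 0 for the minimal fusion above MIG (6.15%), the minimal fusion above CALM-AF10 (2.14%) and ΔOM-LZ above MIG (3.57%). No gene of the list lay wholly below in any comparison, as 3.27%, 4.23%, 6.21%, 2.13%, 4.34% and 3.55% of all genes did for CALM-AF10, ΔOM-LZ and the minimal fusion against MIG, CALM-AF10 against ΔOM-LZ, and the minimal fusion against ΔOM-LZ and against CALM-AF10.

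The sliding clamp gene Pcna had the smallest spread of the list (SD 0.19) and yet followed it. It stood at 12.42, 12.12 and 12.0004 in MIG, 12.34, 12.58 and 12.22 in CALM-AF10, 12.25, 12.38 and 12.32 in ΔOM-LZ, and 12.27, 12.66 and 12.49 in the minimal fusion. Its differences from MIG were 0.20, 0.14 and 0.29 for the 3 fusions in that order, all with overlapping groups. Of the clamp loader genes Rfc3 stood furthest above MIG in the minimal fusion, by 0.47 (95% interval −0.16 to 1.10), with 8.90, 7.98 and 8.15 in MIG, 8.40, 9.09 and 8.12 in CALM-AF10, 8.28, 8.57 and 8.21 in ΔOM-LZ, and 8.61, 9.19 and 8.66 in the minimal fusion. The large subunit gene Rfc1 differed least, by 0.03, with 9.65, 8.98 and 9.11, then 9.23, 9.37 and 8.94, then 9.10, 8.99 and 9.001, and then 9.24, 9.52 and 9.08. Rfc2 was the loader gene least tied to the list, at 9.53, 9.02 and 9.65 in MIG, 9.36, 9.43 and 8.90 in CALM-AF10, 9.73, 9.38 and 9.10 in ΔOM-LZ, and 9.25, 9.60 and 9.58 in the minimal fusion. Its highest array was ΔOM-LZ replicate 1, on which the list as a whole was low.

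Among genes for single-strand binding and the lagging strand, Fen1 had the widest range of the whole list. Fen1, the nuclease that trims Okazaki fragments, stood at 9.11, 8.02 and 7.40 in MIG, 8.26, 9.39 and 7.84 in CALM-AF10, 8.28, 9.52 and 8.22 in ΔOM-LZ, and 8.24, 9.54 and 9.27 in the minimal fusion. Its lowest and highest arrays lay 4.41-fold apart, the most of the list, and 2 of 3 minimal fusion arrays were high. The difference of the minimal fusion from MIG was 0.84 (SE 0.55, 95% interval −0.37 to 2.05, adjusted p = 0.768), and that of ΔOM-LZ was 0.49 (95% interval −0.71 to 1.70). The DNA ligase gene Lig1 followed the rest of the list more closely than any other gene (r = 0.987), at 9.82, 8.83 and 9.06 in MIG, 9.09, 9.77 and 8.75 in CALM-AF10, 8.96, 9.73 and 9.13 in ΔOM-LZ, and 9.30, 9.98 and 9.70 in the minimal fusion. The single-strand binding gene Rpa1 stood at 9.80, 9.06 and 9.27 in MIG, 9.31, 9.84 and 8.94 in CALM-AF10, 9.18, 9.60 and 9.10 in ΔOM-LZ, and 9.18, 10.06 and 9.71 in the minimal fusion, 0.27 above MIG (95% interval −0.36 to 0.90).

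Among genes of nucleotide supply, thymidine kinase, Tk1, which recycles thymidine in S phase, ran 3.96-fold from its lowest to its highest array. It stood at 10.32, 8.64 and 8.53 in MIG, 9.0002, 10.05 and 8.33 in CALM-AF10, 8.72, 10.06 and 9.02 in ΔOM-LZ, and 9.26, 10.14 and 9.86 in the minimal fusion. Its highest array was a MIG array and its lowest a CALM-AF10 array, and the minimal fusion differed from MIG by 0.59 (95% interval −0.63 to 1.81, adjusted p = 0.844). That difference was 1.17 without MIG replicate 1 and 0.27 without MIG replicate 3, short of the threshold in both. Tyms, the thymidylate synthase gene, varied far less, at 10.65, 10.02 and 10.15 in MIG, 10.08, 10.40 and 9.78 in CALM-AF10, 10.28, 10.52 and 10.10 in ΔOM-LZ, and 10.21, 10.62 and 10.47 in the minimal fusion. The minimal fusion differed by 0.16 from MIG and by 0.35 from CALM-AF10 (95% interval −0.10 to 0.79), and the full fusion from ΔOM-LZ by −0.21 (95% interval −0.66 to 0.23).

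The regulators of S phase entry followed the same arrays. Ccne1, one of the cyclin E genes, stood at 9.84, 8.88 and 8.70 in MIG, 8.72, 10.09 and 8.87 in CALM-AF10, 8.97, 10.08 and 9.38 in ΔOM-LZ, and 9.06, 10.37 and 9.999 in the minimal fusion, 0.67 above MIG (95% interval −0.35 to 1.69, adjusted p = 0.782). The other cyclin E gene, Ccne2, stood at 8.98, 8.17 and 8.29, at 8.18, 8.85 and 7.86, at 8.34, 8.78 and 8.17, and at 8.05, 9.31 and 8.57 in the same order, 0.17 above MIG. The transcription factor gene E2f1 stood at 9.996, 9.34 and 9.36 in MIG, 9.55, 10.04 and 9.11 in CALM-AF10, 9.41, 10.08 and 9.70 in ΔOM-LZ, and 9.39, 9.96 and 10.03 in the minimal fusion. The minimal fusion differed from ΔOM-LZ by 0.06 in E2f1 (95% interval −0.55 to 0.68), and its lowest array lay below every ΔOM-LZ array. The chromatin assembly genes Chaf1a and Chaf1b, which place histones on new DNA, stood 0.29 and 0.30 above MIG in the minimal fusion. Chaf1a stood at 9.36, 8.51 and 8.58 in MIG, 8.75, 9.40 and 8.30 in CALM-AF10, 8.52, 9.48 and 8.70 in ΔOM-LZ, and 8.79, 9.23 and 9.31 in the minimal fusion. Chaf1b stood at 9.82, 9.19 and 9.64 in MIG, 9.75, 10.07 and 9.21 in CALM-AF10, 9.55, 9.79 and 9.55 in ΔOM-LZ, and 9.52, 10.16 and 9.88 in the minimal fusion, overlapping throughout.

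**Figure D3:**
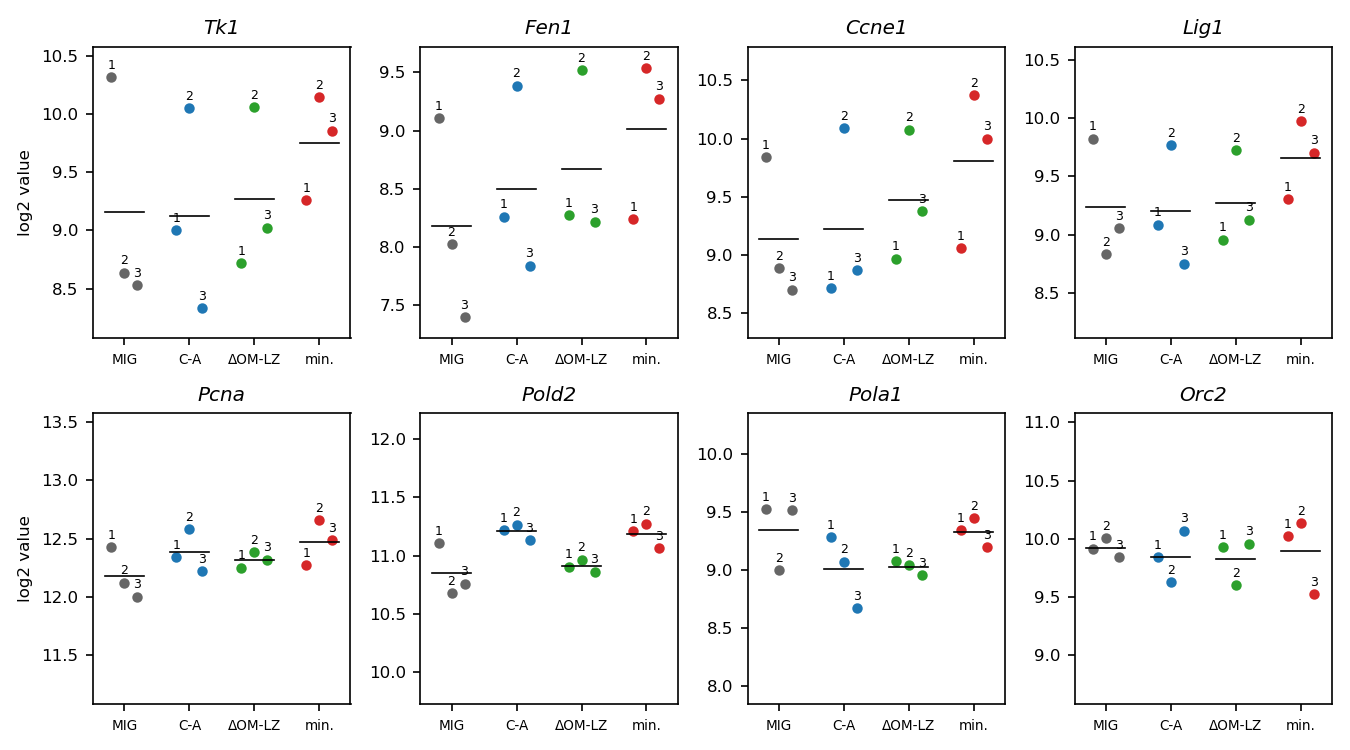
Points are log2 values of 8 genes on each of the 12 arrays, numbered by replicate, for MIG, CALM-AF10 (C-A), CALM-AF10 ΔOM-LZ (ΔOM-LZ) and the minimal fusion (min.); lines are group means, and every panel spans the same log2 range. Tk1, Fen1, Ccne1 and Lig1 split within each construct, while Pold2 lies higher in CALM-AF10 than in MIG or ΔOM-LZ and Orc2 shows neither pattern.

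How closely a gene followed the rest was measured by Pearson r with the mean of the other 43 genes over the 12 arrays. All points share the same arrays, and the values describe these arrays only. The median r was 0.92, and 35 of 44 genes were over 0.8. Of the 19894 other genes, 3.12% reached 0.8 with the list's mean, and their median was 0.10. With each construct's mean removed first, the median r of the list was 0.93. The closest were Lig1 (r = 0.987), Tk1 (0.971) and Mcm3 (0.968), and the 3 that followed least were Orc2 (−0.36), Rfc2 (0.50) and Pola1 (0.51). Spearman's rho was −0.25 for Orc2, 0.38 for Rfc2 and 0.54 for Pola1. The median SD over the 12 arrays was 0.35 for the list and 0.18 for all genes, and each of the 44 exceeded the latter.

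Genes with and without an E2F word in their window overlapped in both measures. The 13 with a word had a median r of 0.95 with the other genes (0.51 to 0.99) and a median SD of 0.38. The 23 without had a median r of 0.90 (−0.36 to 0.97) and a median SD of 0.34, and the latter included Tk1, Fen1 and Ccne1, the genes with the 3 widest spreads. Pola1 had a word and followed poorly.

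**Figure D4:**
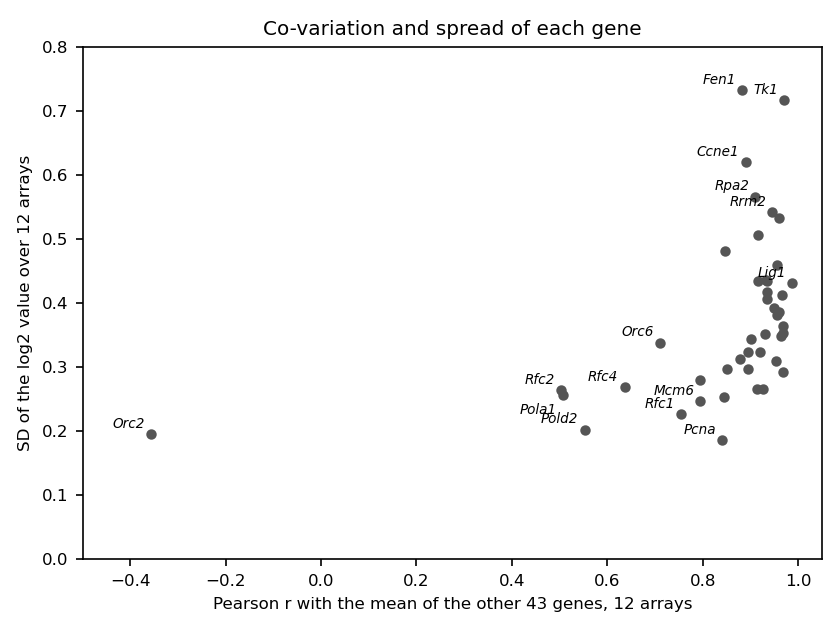
Each point is 1 of the 44 genes, with Pearson r to the mean of the other 43 genes over 12 arrays on the horizontal axis and the SD of its log2 value over 12 arrays on the vertical axis. Most genes lie between r of 0.8 and 1, Orc2 stands alone at −0.36, and Fen1, Tk1 and Ccne1 have the widest spread.

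Replication genes outside the list were, by their mean, high and low on much the same arrays. Of 52 such genes in a second list (among them origin factors, checkpoint partners and mismatch repair genes), 49 were measured, and their mean deviation per array was 0.31, −0.21 and −0.11 in MIG, −0.11, 0.24 and −0.24 in CALM-AF10, −0.27, 0.03 and −0.10 in ΔOM-LZ, and 0.00, 0.38 and 0.08 in the minimal fusion. Minimal fusion replicate 2 and MIG replicate 1 were again the highest, and ΔOM-LZ replicate 1 was the lowest. By limma 0 of the 49 passed the adjusted p in any comparison. At an unadjusted p under 0.05, 4 genes were above MIG in the minimal fusion and 1 below (of all genes 3.51% and 4.22%). Both directions together made 10.2% of the 49, against 7.72% of all genes. Against ΔOM-LZ 3 were above and 0 below (1.74% and 2.61%), or 6.12% against 4.34%, and against CALM-AF10 there were 0 (1.87%). For CALM-AF10 against MIG 1 was above and 1 below (3.48% and 1.65%), or 4.08% against 5.13%. For ΔOM-LZ against MIG 0 were above and 2 below (1.47% and 2.39%), or 4.08% against 3.87%. For CALM-AF10 against ΔOM-LZ there were 0 (2.38%). All minimal fusion arrays lay above all ΔOM-LZ arrays for 10 of the 49 (20.4%, against 3.74% of all genes). The share in the first list was 18.2%, and 0 of the 49 lay wholly below (4.34% of all genes). Dctpp1, which clears modified nucleotides, stood 0.44 above MIG in the minimal fusion (adjusted p = 0.531), Ung, a uracil-removing repair enzyme, 0.38 above (adjusted p = 0.592) and Pold4, another small subunit of polymerase delta, 0.58 below (adjusted p = 0.644).

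Upstream control genes were mixed. This list held genes for D cyclins, CDKs, RB, E2F and Tfdp proteins and CDK inhibitors, and also Ccna2, Cdc25a, Skp2, Fbxw7, Myc and Mycn. Over the 30 measured of its 31 genes, Pearson r with the replication mean over the 12 arrays was over 0.8 for 6 and below 0 for 10. The 6 were Skp2 (0.96), E2f7 (0.94), E2f8 (0.92), Cdc25a (0.90), Ccna2 (0.88) and Tfdp1 (0.81), and the lowest were Rb1 (−0.72) and Tfdp2 (−0.60). The list mean, in which such genes offset each other, lay between −0.13 and 0.14 on all arrays. Ccnd1, the cyclin D1 gene, came closest to the threshold, at 6.48, 6.73 and 6.45 in MIG, 6.77, 6.63 and 6.63 in CALM-AF10, 6.72, 6.72 and 6.70 in ΔOM-LZ, and 7.13, 7.24 and 7.23 in the minimal fusion. All minimal fusion arrays lay above the other 9, and the log2 difference was 0.65 from MIG (SE 0.09, adjusted p = 0.0594), 0.48 from ΔOM-LZ (adjusted p = 0.331) and 0.52 from CALM-AF10 (adjusted p = 0.608). Rb1, the retinoblastoma gene, which holds E2F in check, differed between the minimal fusion and MIG by −1.01 (SE 0.37, adjusted p = 0.568), with 10.27, 10.68 and 11.55 in MIG against 10.25, 9.72 and 9.50.

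Mitosis genes, which peak later in the cycle, followed the same arrays in part. Over 31 measured of 32 genes, the list's mean deviation was 0.52, −0.15 and 0.12 in MIG, −0.54, 0.40 and −0.49 in CALM-AF10, −0.58, 0.28 and −0.17 in ΔOM-LZ, and −0.01, 0.46 and 0.16 in the minimal fusion. The same quantity for the 44 replication genes was 0.42, −0.35 and −0.23, then −0.14, 0.40 and −0.47, then −0.28, 0.20 and −0.19, and then −0.05, 0.49 and 0.20. The lists parted most on CALM-AF10 replicate 1 and MIG replicate 3. The median difference of CALM-AF10 from MIG was −0.36 for mitosis genes, of which 0 of 31 stood higher, and −0.03 for replication genes. For ΔOM-LZ against MIG it was −0.32 for mitosis genes, of which 2 of 31 stood higher, and −0.05 for replication genes. For the minimal fusion against MIG it was 0.00 for mitosis genes, of which 16 of 31 stood higher, and 0.26 for replication genes. Against ΔOM-LZ its median was 0.35 for mitosis genes (31 of 31 higher) and 0.30 for replication genes. Against CALM-AF10 its median was 0.42 for mitosis genes (31 of 31 higher) and 0.28 for replication genes. At an unadjusted p under 0.05 by limma, 6 of 31 mitosis genes (19.4%) were lower in CALM-AF10 than in MIG (1.65% of all genes). For ΔOM-LZ against MIG 2 were lower (6.45%, against 2.39% of all genes). In both comparisons 0 were higher. In both lists 0 genes passed the adjusted p in any comparison, and the difference between the lists was not tested.

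**Figure D5:**
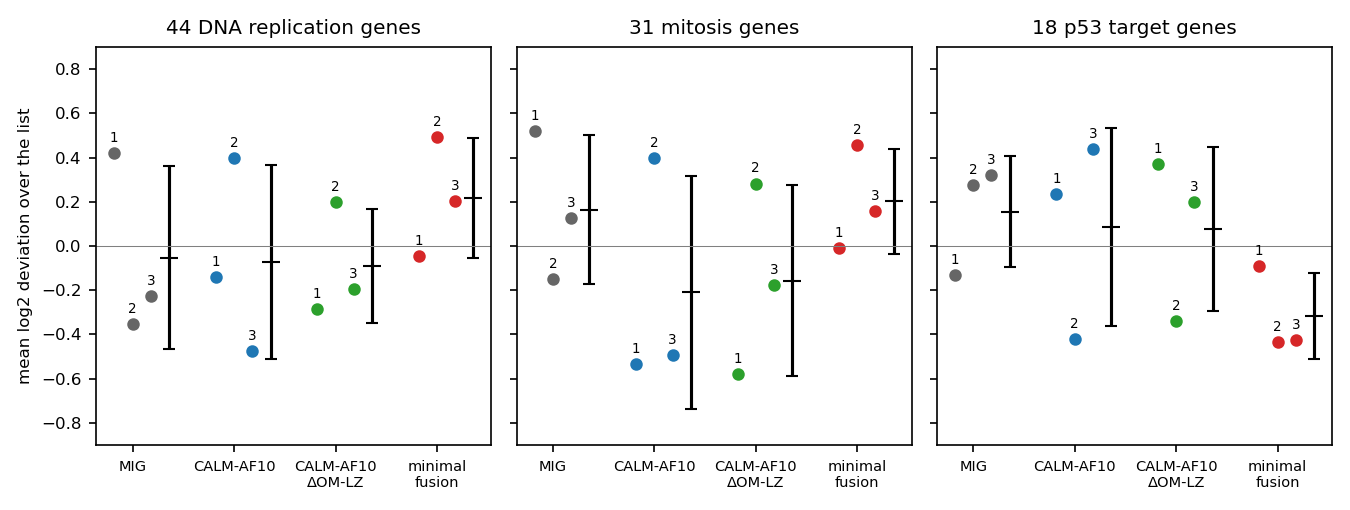
Points are arrays, numbered by replicate, and show the mean over a list of the log2 value minus the gene's mean over 12 arrays, for the replication, mitosis and p53 target genes; black bars are group mean and SD (n = 3). The arrays highest for replication genes, MIG replicate 1, CALM-AF10 replicate 2 and minimal fusion replicate 2, are high for mitosis genes too and lie below 0 for p53 targets.

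Other lists varied over the arrays as well, some of them also by construct. Genes induced by p53, which halts the cycle after DNA damage (18 measured of 20), had mean deviations of −0.13, 0.28 and 0.32 in MIG, 0.23, −0.42 and 0.44 in CALM-AF10, 0.37, −0.34 and 0.20 in ΔOM-LZ, and −0.09, −0.43 and −0.42 in the minimal fusion. Each array above 0 for replication genes lay below 0 for p53 targets. Neutrophil primary granule markers of dividing granulocyte precursors (5 of 5 measured) stood at 0.51, −0.05 and −0.42, then −1.09, 0.76 and −0.28, then −1.48, 0.78 and 0.39, and then −0.34, 0.73 and 0.48. Late neutrophil markers (11 of 11) stood at 0.04, 0.57 and −0.55 in MIG, −0.52, 0.17 and 0.17 in CALM-AF10, 0.20, 0.81 and 0.78 in ΔOM-LZ, and −0.82, −0.56 and −0.30 in the minimal fusion. Of these, 0 of 11 stood higher in the minimal fusion than in any other group, with median differences of −0.50 from MIG, −1.05 from ΔOM-LZ and −0.37 from CALM-AF10, and 10 of 11 stood higher in ΔOM-LZ than in MIG. By limma 0 of them passed the adjusted p in any comparison. Monocyte and macrophage markers (8 of 8) stood at 0.02, 1.01 and −0.36, then −0.31, −0.21 and 0.08, then 0.94, −0.10 and 0.23, and then −0.40, −0.53 and −0.37. Mast cell markers (8 of 8) ran from −0.29 to 1.65 in MIG, −0.73 to 0.83 in CALM-AF10, −0.13 to 1.37 in ΔOM-LZ and −1.17 to −0.36 in the minimal fusion. Megakaryocyte markers (6 of 9) ran from −0.15 to 1.31, −0.73 to 0.16, −0.49 to 1.11 and −0.96 to −0.39 in that order. Stem and progenitor markers (10 of 11) stood at −0.28, −0.31 and 0.09 in MIG, 0.40, −0.28 and 0.09 in CALM-AF10, −0.10, −0.71 and −0.30 in ΔOM-LZ, and 0.58, 0.52 and 0.31 in the minimal fusion. The part of these lineages in the replication values was not tested.

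Markers of the labelled tissue and of other cells were read from the same arrays, and levels of different probe sets cannot be set against each other. The granulocyte enzyme genes Mpo and Elane stood between 12.10 and 13.38 and between 9.94 and 13.20. Of the B cell genes, Cd79a stood between 4.40 and 4.88 and Cd79b between 8.15 and 9.02. Of 10 genes listed for fibroblasts and the producer line, Col1a1 stood between 6.999 and 7.74, Thy1 between 10.25 and 11.26, Fn1 between 7.64 and 10.67 and Pdgfrb between 7.96 and 10.20. Their list mean deviated by −0.21 to 0.38, with MIG replicate 2, on which replication genes were low, the highest and minimal fusion replicate 2 the lowest. Pearson r with the replication mean was below 0 for 3 of the 10 genes, lowest for Pdgfrb (−0.71) and Fn1 (−0.55). For the rest it was above 0, up to 0.44 for Pdgfra, and the part of these cells in the result was not tested. Array medians over all probe sets ran from 6.581 to 6.686.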

How the data were processed

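RNA of 12 samples, 3 for each of 4 constructs, was measured on Affymetrix arrays. The authors deposited 1 log2 value for each probe set on each array. The submitters' processing notes name Affymetrix Expression Console; its version and the summarization and normalization used are not given. That values are log2 rests on their range, 2.883 to 14.272, and they were used as deposited. A probe annotation table gave a gene symbol to 23410 of 35556 probe sets, 21789 of them a single one, for 19938 genes. Each gene was represented by its single-symbol probe set of highest mean.

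One linear model with a mean per construct was fitted over the 12 arrays with limma 3.58.1 in R 4.3.3 (8 residual degrees of freedom), and checked on simulated data. P values are two-sided. Replicates are biological per the labels, and their number limits precision. No 2 arrays held identical values. All 3 same-numbered arrays of CALM-AF10 and ΔOM-LZ deviated together (r = 0.70 to 0.73 over the probe sets tested), a pairing seen in the data and not in the labels. In the other comparisons at least 1 number did not (r of 0.1 or less). Minimal fusion replicate 1 nevertheless deviated with CALM-AF10 (r = 0.72) and ΔOM-LZ (r = 0.62) replicate 1, and its replicate 2 with CALM-AF10 replicate 2 (r = 0.39). MIG replicate 1 ran against replicate 1 of CALM-AF10 (r = −0.47), ΔOM-LZ (r = −0.51) and the minimal fusion (r = −0.60).

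The genes and lists were chosen with earlier results of these data known. Alternatives were other normalizations, probe set choices, variance models and pairings, and leaving out each array. Values in every array are given, among replication genes, for the 2 highest and 2 lowest moderated statistics of a comparison, the 3 widest and narrowest spreads, the 3 closest and loosest followers, and the extremes of each role.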

Additional observations from a re-analysis of the deposited data

How the results depend on the processing

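The count of replication genes past an adjusted p of 0.05 was 0 in each of the 6 comparisons and in the F test, and it was 0 again under quantile normalization, median centring, leaving out dim probe sets, the mean of a gene's probe sets, trend and robust variance, testing all probe sets of the file, and leaving out any 1 array. It was also 0 in each comparison in a fit of the 2 groups alone. With the replicate number as a block the count was 0, over 12 arrays and over 2 groups alone, so the pairing of CALM-AF10 and ΔOM-LZ changed no call. The smallest adjusted p of any of the 44 under any setting was 0.217. Over the settings run, the difference of the list means changed sign in each comparison without the minimal fusion. It ran from −0.25 to 0.22 for CALM-AF10 minus MIG, −0.19 to 0.20 for ΔOM-LZ minus MIG and −0.21 to 0.22 for CALM-AF10 minus ΔOM-LZ. For the minimal fusion it stayed above 0, from 0.12 to 0.51 against MIG, 0.17 to 0.46 against ΔOM-LZ and 0.088 to 0.52 against CALM-AF10. Of 38 differences of named genes, 29 kept their sign throughout. Under quantile normalization 3 small ones turned: Orc2 to 0.012 and Pola1 to 0.012 for the minimal fusion against MIG, and Pold2 to 0.026 for the minimal fusion against CALM-AF10. Leaving out 1 array, differences for the minimal fusion against MIG ran from −0.15 to 0.16 for Orc2, −0.19 to 0.069 for Pola1, −0.12 to 0.29 for Gins4, −0.10 to 0.23 for Rfc1 and −0.16 to 0.47 for Ccne2. Against CALM-AF10 they ran from −0.070 to 0.035 for Pold2 and −0.073 to 0.23 for Orc2. Against ΔOM-LZ they ran from −0.10 to 0.27 for E2f1 and −0.076 to 0.24 for Rfc2. Where 1 array is left out, 2 remain in its group, and the variance is shared with the other groups. Signal over background could not be judged from these summarized values.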
